A study of Aspergillus nidulans and Aspergillus wentii with 48 samples.

Results

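In the *Aspergillus wentii* reference strain CBS141173, 200 of 12659 genes had a raised mean level under sorbitol alone and under NaCl alone, yet stood close to their untreated level when the stressors were given together. The change L of a gene was the log2 ratio of its mean RPKM plus 1 in the treated cultures to its mean RPKM plus 1 in the untreated cultures. RPKM is the read count of a gene scaled to its length and to the library total. Members had L above 1.5 under each single stressor and an absolute L under 0.5 in the combination. The members were thus chosen by the CBS141173 RPKM values under all treatments, and these values are given as a description, without a test. As a group, the genes were near their untreated level in the combination rather than switched off. Their median level was 6.25 RPKM there and 6.40 RPKM in untreated mycelium, against 32.9 RPKM under sorbitol and 45.0 RPKM under NaCl. A mean under 1 RPKM was found for 44 of the 200 in the combination and for 49 in untreated mycelium.

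Hyperosmotic stress draws water out of the hypha, and filamentous fungi respond by accumulating compatible solutes, glycerol foremost among them. Osmotic signals pass through the high-osmolarity glycerol (HOG) mitogen-activated protein kinase pathway to transcription factors, among them the bZIP protein AtfA. Glycerol-3-phosphate dehydrogenase and glycerol dehydrogenases lie on routes of glycerol synthesis, and proton symporters bring glycerol back into the cell.

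The series held 48 RNA-seq libraries from submerged cultures of 4 strains, 3 biological replicates in each of 4 conditions. *A. wentii* CBS141173 has no *gfdB* gene. Its derivative ′c *gfdB* carries the *A. nidulans* glycerol-3-phosphate dehydrogenase gene *gfdB* under its own promoter, and the *A. wentii* count table has no entry for that transgene. *A. nidulans* was represented by the reference strain THS30, which has *gfdB*, and by the deletion mutant Δ*gfdB*. Cultures were left untreated or received 2 M sorbitol, 1 M NaCl or both for 0.5 h, after 65 h of growth for both *A. wentii* strains, 36 h for THS30 and 38 h for Δ*gfdB*. The 3 treated groups of a strain share its 3 untreated libraries. *A. wentii* libraries held 11758085 to 32274107 counted reads. Averaged over the 12 CBS141173 libraries, every member had at least 14.5 reads per library. That mean includes the single-stress libraries, where members are high by the rule, and does not give the depth in the untreated and combined ones. These are bulk samples, in which fewer cells expressing a gene and less of its RNA per cell cannot be told apart.

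In CBS141173 the members' median L was 1.99 under sorbitol, 2.45 under NaCl and 0.10 in the combination, against 0.06, 0.01 and 0 over all *A. wentii* genes. The members took 0.514% to 0.575% of the reads in the untreated libraries. In the combination the share was again 0.533% to 0.575%, whereas it reached 3.39% to 4.19% with NaCl alone and 2.098% to 3.35% with sorbitol alone. All 200 members were higher in each NaCl library than in each untreated library and 199 in each sorbitol library, where 29.2% and 26.3% of all genes did the same. The limits on L already favour such a separation. In the combination 37 members lay above and 18 below the whole untreated range, where all genes gave 22.8% and 24.4%.

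The sorbitol libraries of CBS141173 differed among themselves more than those of the other treatments. The members' median L was 1.65 in replicate 1, 2.02 in replicate 2 and 2.27 in replicate 3, and replicate 1 held the lowest sorbitol value of 131 of the 200 members. In the combination the medians of the 3 libraries lay between 0.04 and 0.11. The rule found 1.70% of all genes without sorbitol replicate 1, 1.61% without replicate 2 and 1.35% without replicate 3, against 1.58% with all libraries.

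**Figure D1:**
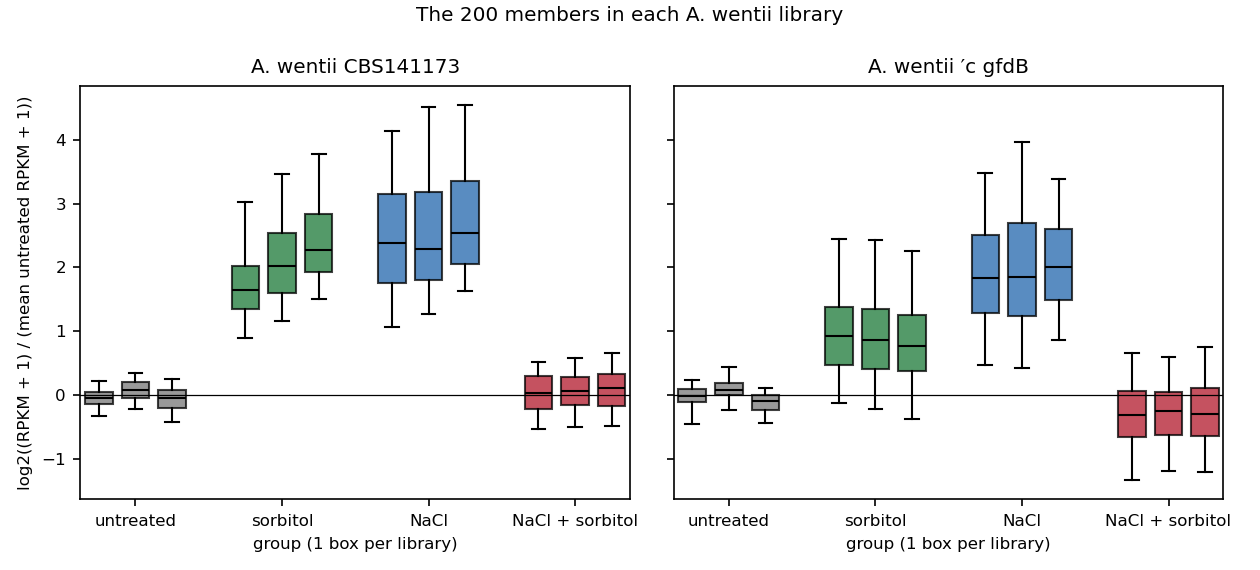
Change of the 200 members in each *A. wentii* library, as log2 of RPKM plus 1 over mean untreated RPKM plus 1, with 1 box per library (median, quartiles, whiskers from the 5th to the 95th percentile) and replicates 1 to 3 from left to right. In CBS141173 the combination boxes sit at the untreated level (medians 0.04 to 0.11), and in ′c *gfdB* the sorbitol medians are 0.77 to 0.93 and the combination medians lie below 0.

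On the study's orthologue lists of osmotic stress or glycerol metabolism genes stood 7 members, and the files pair no name with the others. ASPWEDRAFT_104967 is the *gfdA* orthologue, the glycerol-3-phosphate dehydrogenase of *A. wentii*, an enzyme that turns dihydroxyacetone phosphate into the precursor of glycerol. In CBS141173 it was at 88.9, 106 and 94.6 RPKM untreated, at 482, 1452 and 806 RPKM under sorbitol and at 1160, 782 and 1056 RPKM under NaCl. In the combination it was at 138.2, 92.2 and 132 RPKM, a range that overlapped the untreated one. L was 3.23, 3.36 and 0.32 in that order of treatments.

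ASPWEDRAFT_37015 is the orthologue of *atfA*, whose product is a bZIP transcription factor that acts with the HOG kinase in *A. nidulans*. It read 26.4, 31.3 and 30.0 RPKM in untreated CBS141173, 140, 245 and 229 RPKM under sorbitol and 299, 308 and 353 RPKM under NaCl. The combination gave 40.2, 33.1 and 31.7 RPKM, just above the untreated libraries. A regulator of the stress response was thus itself among the genes that stayed near the untreated level when both stressors were present, with L of 0.25.

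The members ASPWEDRAFT_534313, ASPWEDRAFT_112163 and ASPWEDRAFT_174802 are orthologues of AN9168, listed by the study as a proton symporter with a role in glycerol uptake. ASPWEDRAFT_534313 had the highest level of all members under NaCl, with 2626, 2626 and 3244 RPKM, and it alone gave 16.9% of the members' reads in those libraries. It stood at 79.9, 103 and 61.9 RPKM untreated, at 964, 1157 and 1604 RPKM under sorbitol, and at 34.2, 63.8 and 98.1 RPKM in the combination. The groups with a single stressor lay far above the other 2 groups, which overlapped.

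ASPWEDRAFT_112163 varied widely between replicates, from 4.23 to 35.9 RPKM untreated and from 170 to 745 RPKM under NaCl. Under sorbitol its lowest library was at 45.6 RPKM, and in the combination its libraries ran from 5.23 to 24.3 RPKM. ASPWEDRAFT_174802 was a low-level gene, at 0.405 to 0.493 RPKM untreated and 0.364 to 0.838 RPKM in the combination. With NaCl alone it reached 9.06 to 11.9 RPKM and with sorbitol alone 2.71 to 7.90 RPKM.

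ASPWEDRAFT_104176 and ASPWEDRAFT_108056 are orthologues of NADP-dependent glycerol dehydrogenases, which interconvert glycerol and dihydroxyacetone. ASPWEDRAFT_104176 was at 3.00, 3.32 and 2.54 RPKM untreated, 20.2, 38.1 and 45.2 RPKM under sorbitol, 34.9, 20.9 and 28.4 RPKM under NaCl and 3.49, 3.20 and 4.57 RPKM in the combination. ASPWEDRAFT_108056 ran from 6.15 to 8.50 RPKM untreated and from 7.34 to 11.7 RPKM in the combination, against 17.4 to 40.2 RPKM with sorbitol alone and 28.5 to 57.7 RPKM with NaCl alone. In both genes the single-stress libraries all lay above the untreated and combined ones, which overlapped each other.

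**Figure D2:**
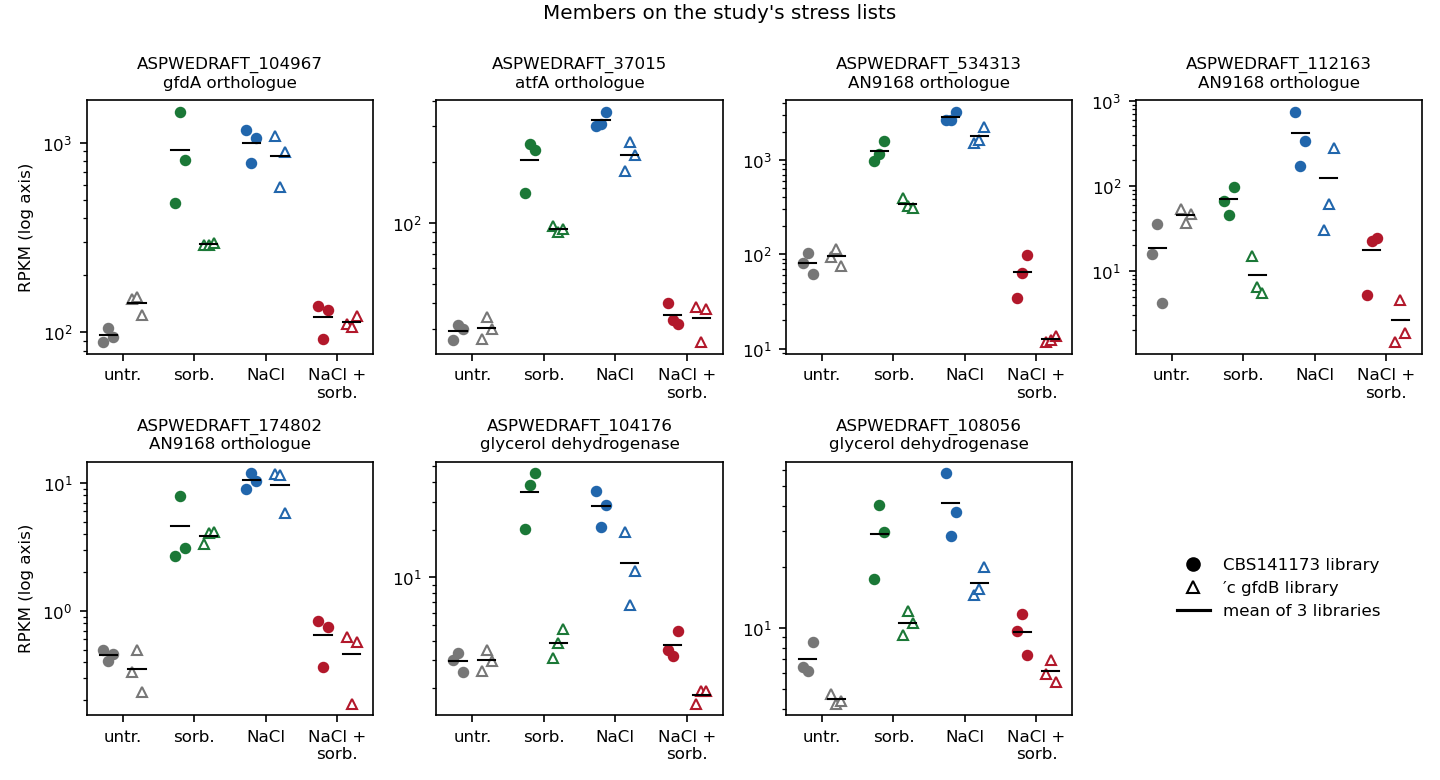
RPKM on a log axis of the 7 members that the study lists, in each library of CBS141173 (filled circles) and ′c *gfdB* (open triangles), with the mean of 3 libraries as a bar. ASPWEDRAFT_534313 reaches 3244 RPKM under NaCl in CBS141173, and in ′c *gfdB* its combination libraries (11.7 to 13.5 RPKM) lie below the untreated ones (75.9 to 115 RPKM).

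The same families were mostly not members. Of 12 AN9168 orthologues, 4 passed both single-stress limits, and the fourth, ASPWEDRAFT_35932, kept an L of 2.88 in the combination after 4.05 under sorbitol and 7.76 under NaCl. The remaining 8 had L between -0.58 and 0.94 under sorbitol and between -0.21 and 1.00 under NaCl. All of these except ASPWEDRAFT_172143 (23.95 RPKM) had an untreated mean of 0.312 RPKM or less, where the pseudocount of 1 holds L down. ASPWEDRAFT_43563, with the L of 0.94, went from a mean of 0.204 to 1.31 RPKM under sorbitol. Of 15 orthologues of the glycerol dehydrogenases AN1274, AN7193 and AN11030, only the 2 members passed both single-stress limits, and ASPWEDRAFT_45133 (L of 1.61, 0.95 and 1.505 under sorbitol, NaCl and the combination) was highest in the combination among the others.

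Across the 37 genes of the glycerol metabolism list 6 were members and 7 passed both single-stress limits. On the osmotic stress list 2 of 24 were members and 3 passed both limits, and the third, ASPWEDRAFT_99233, an orthologue of AN2005, had L of 2.80, 3.17 and 1.32. None of the 48 oxidative stress genes was a member, although 3 passed both limits. The nearest was ASPWEDRAFT_53830, a catalase orthologue, whose L in the combination was 0.508, just outside the limit of 0.5. Of the study's RT-qPCR genes 12 were taken up as a list, and none was a member. ASPWEDRAFT_173702, for which the study also gives primers, is counted on the osmotic stress list and was not a member. Over all genes, 431 of 12659 passed both single-stress limits. The osmotic stress and glycerol lists hold *A. wentii* orthologues of *A. nidulans* genes, and a gene that has several orthologues enters once for each.

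**Figure D3:**
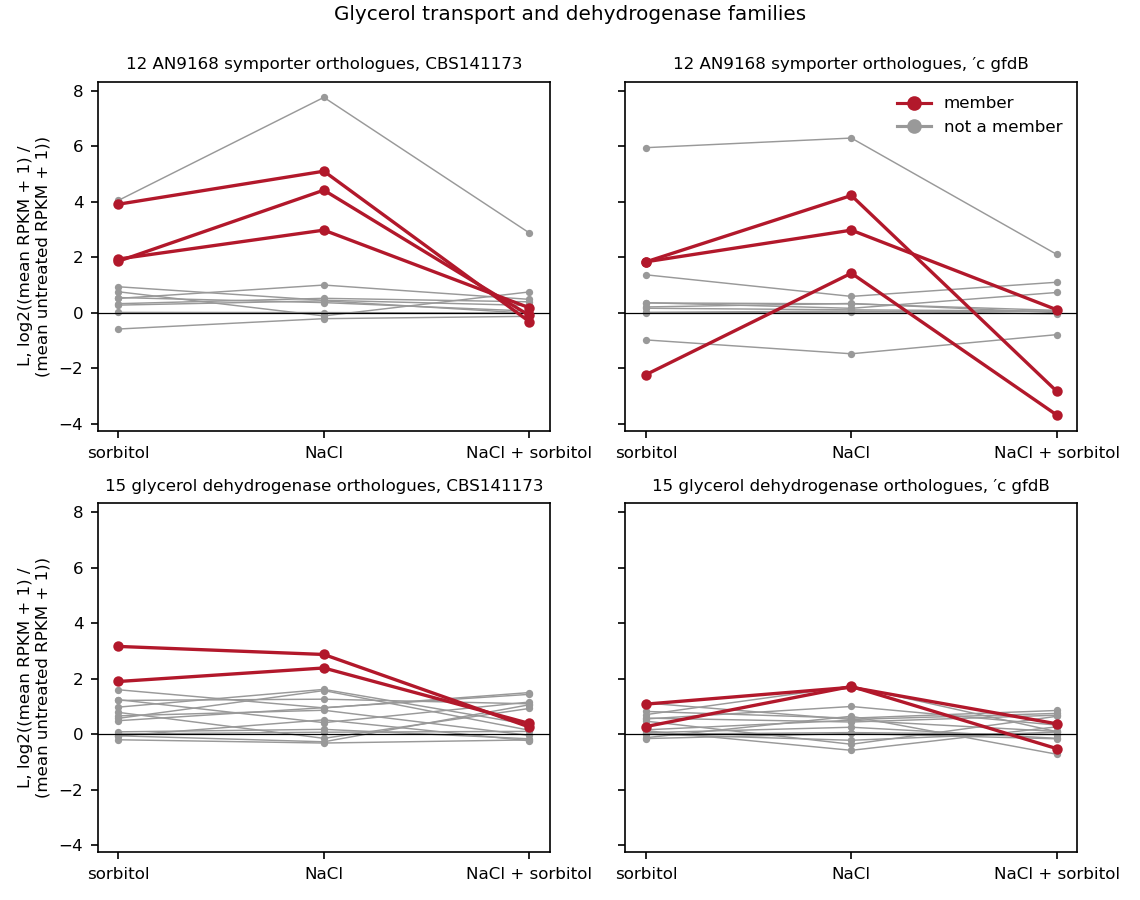
L under each treatment for the 12 AN9168 orthologues (top) and the 15 glycerol dehydrogenase orthologues (bottom), CBS141173 on the left and ′c *gfdB* on the right, with members in red. In CBS141173 the 5 members return to between -0.31 and 0.39 in the combination, and ASPWEDRAFT_35932 (top grey line) stays at 2.88.

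The other members covered a wide range of levels. In untreated CBS141173, 49 of the 200 had a mean under 1 RPKM (24.2% of all genes did), and 5 were above 100 RPKM. Under NaCl 61 were above 100 RPKM, under sorbitol 51 and in the combination 7. The 10 members with the highest single-stress level, which include the *gfdA* orthologue and ASPWEDRAFT_534313, gave 37.3% of the members' reads in the NaCl libraries. One of them, ASPWEDRAFT_195148, was at 142 to 167 RPKM in the combination, within its untreated range of 71.6 to 238.3 RPKM, and at 760 to 1269 RPKM with sorbitol alone and 1335 to 2188 RPKM with NaCl alone.

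The largest mean L over the single stressors belonged to ASPWEDRAFT_66122, which went from 0.143 to 0.497 RPKM untreated to 13.2 to 32.5 RPKM under sorbitol and to at least 85.9 RPKM under NaCl. In the combination it was at 0.629 to 0.696 RPKM, again under 1 RPKM. The 10 largest mean L ran down to 3.63. Members had a median length of 1462 bases, against 1308 over all genes. Their untreated level was lower, with a median of 6.40 RPKM against 10.8 RPKM and quartiles of 1.07 and 20.1 RPKM against 1.11 and 43.9 RPKM, a difference that was not tested. The untreated mean is the base of each L, so the rule itself bears on this level. NaCl gave the larger L in 147 members (73.5%, against 43.8% of all genes), from the same values that the rule used.

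Genes close to a limit shared much the same values on both sides. The lowest members under sorbitol had L of 1.504 and 1.508, and the nearest genes outside had 1.497 and 1.494. Under NaCl the members ended at 1.503 and 1.525, with 1.499 and 1.485 outside. In the combination the absolute L of the outermost members was 0.495 and 0.490, with 0.508 for both of the nearest genes outside.

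The ′c *gfdB* cultures took no part in choosing the members, so the response to each treatment was tested there. A call required a Benjamini-Hochberg adjusted p under 0.05 in edgeR's quasi-likelihood test, over 10534 genes in the 12 libraries of the strain, and a change of more than 2-fold. Of the 200 members 197 passed the filter on low counts. The 3 left out had at most 38 reads in any ′c *gfdB* library, and 13 of the 197 had fewer than 10 reads in every untreated and combined library and so passed through the single stressors. Without the filter, all 200 entered the fit.

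Under NaCl most members rose in ′c *gfdB* as well. Of the 197, 184 were called up (93.4%, against 19.9% of all genes tested) and 0 were called down (7.64% of all genes). Only 2 of the 197 had a negative fitted change, 0 of them at an unadjusted p under 0.05, and DESeq2 and limma called 0 down as well. The median fitted log2 change was 2.32, against 0.10 over all genes. Without the filter 92.5% of the 200 were called up.

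Under sorbitol fewer members passed the test. In ′c *gfdB*, 106 were called up (53.8%, against 12.3% of all genes) and 2 down (9.26% of all genes), with a median fitted log2 change of 1.10 against 0.01. By library the members' median L was 0.93, 0.87 and 0.77 in ′c *gfdB*, below each of the 3 CBS141173 medians. NaCl gave the larger L in 196 of 200 members, where 58.2% of all genes did the same. Whether the strains differ was not tested, because the CBS141173 values chose the members.

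In the combination few members passed the test in ′c *gfdB*. Only 3 of the 197 were called up (1.52%, against 9.24% of all genes) and 25 were called down (12.7%, against 11.2%), so the share called down was near that of all genes. The median fitted log2 change was -0.37 against -0.11, and 140 of the 197 fitted changes were negative (71.1%, against 55.4%). With limma on log2(RPKM + 1), 14 members were called down, and 16 in a fit to all 24 *A. wentii* libraries.

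Set directly against each single stressor, the combination was lower for most members in ′c *gfdB*. Against NaCl alone, 187 of 197 members were called lower (94.9%, against 23.8% of all genes), with a median log2 difference of -2.73 against -0.17 over all genes. Against sorbitol alone, 121 were called lower (61.4%, against 6.48%), with a median of -1.43 against -0.03. Called higher were 0 members in either comparison (8.92% and 0.627% of all genes were). A positive fitted difference was seen in 1 and 3 members, 0 of them at an unadjusted p under 0.05, and DESeq2 and limma called 0 higher. These comparisons share libraries with those against the untreated cultures.

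**Figure D4:**
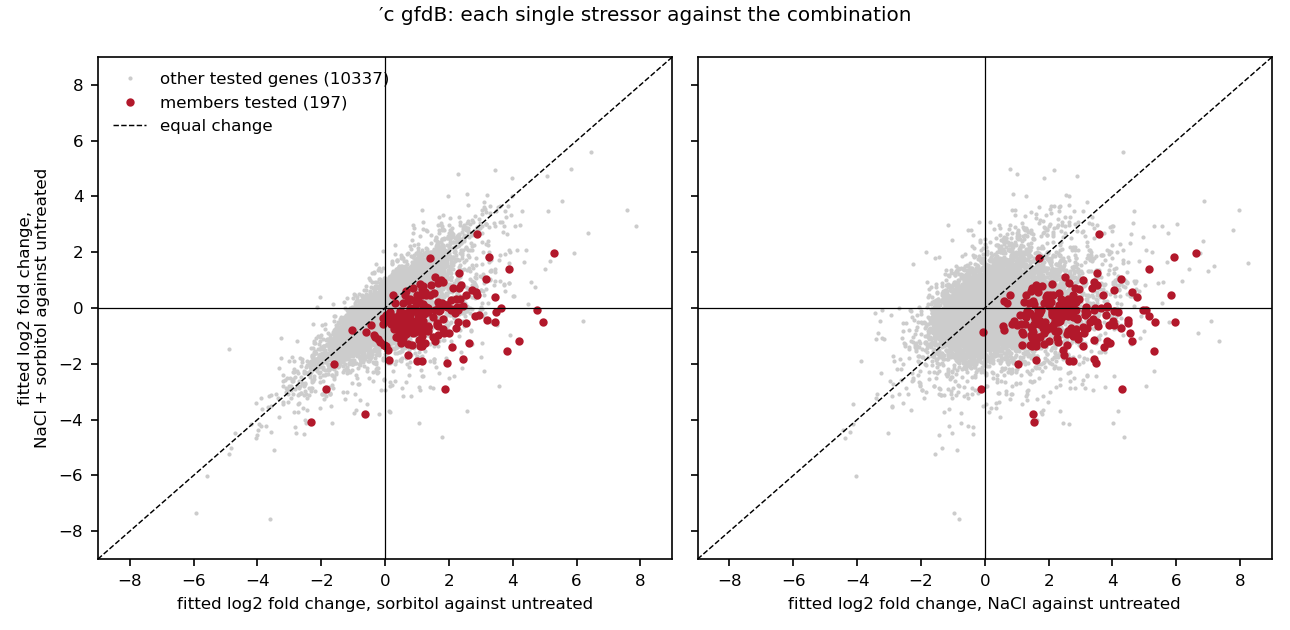
Fitted log2 fold changes in ′c *gfdB* of the combination (vertical axis) against sorbitol (left) and NaCl (right), for the 197 members tested (red) and the other genes tested (grey), with equal change as a dashed line. Of the 197 members, 194 lie below the dashed line on the left and 196 on the right, where 52.5% and 55.9% of all genes tested do.

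The *gfdA* orthologue ASPWEDRAFT_104967 was at 149, 153.3 and 123.6 RPKM in untreated ′c *gfdB*, 289, 288 and 297 RPKM under sorbitol and 1081, 585 and 892 RPKM under NaCl. The combination gave 110, 106.5 and 122 RPKM, below all untreated libraries. In edgeR's quasi-likelihood test the log2 change was 1.06 ± 0.20 (SE) under sorbitol (adjusted p = 0.00236) and 2.61 ± 0.21 under NaCl (adjusted p = 5.15e-06). It was -0.30 ± 0.20 in the combination (adjusted p = 0.266). Without untreated replicate 3 the sorbitol change was 0.97, under the 2-fold limit.

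The *atfA* orthologue ASPWEDRAFT_37015 behaved alike, with 26.7, 34.2 and 30.0 RPKM untreated, 97.01, 89.8 and 93.2 RPKM under sorbitol, 180, 250 and 217 RPKM under NaCl and 38.2, 25.8 and 37.6 RPKM in the combination. Its log2 changes in edgeR's quasi-likelihood test were 1.65 ± 0.21 (SE; adjusted p = 0.00031), 2.87 ± 0.22 (adjusted p = 4.01e-06) and 0.20 ± 0.21 (adjusted p = 0.478) in that order of treatments. Both single-stress groups lay above the untreated one without overlap, while the combination spanned it.

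The AN9168 orthologue ASPWEDRAFT_534313 rose under each stressor and fell in the combination. It was at 93.8, 115 and 75.9 RPKM untreated, 393, 323 and 306 RPKM under sorbitol, 1513, 1610 and 2251 RPKM under NaCl and 11.7, 12.2 and 13.5 RPKM in the combination. The fitted log2 change in edgeR's quasi-likelihood test was 1.87 ± 0.25 (SE) under sorbitol (adjusted p = 0.000344), 4.29 ± 0.28 under NaCl (adjusted p = 1.54e-06) and -2.89 ± 0.26 in the combination (adjusted p = 4.1e-05). Between NaCl alone and the combination this symporter gene differed by -7.18 ± 0.32 on the log2 scale (adjusted p = 1.4e-07).

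ASPWEDRAFT_112163 fell under sorbitol in ′c *gfdB*, from 53.2, 37 and 46.5 RPKM untreated to 14.98, 6.44 and 5.45 RPKM. The log2 change in edgeR's quasi-likelihood test was -2.34 ± 0.74 (SE; adjusted p = 0.0267), and the call was lost without any one of 4 of the 12 libraries (untreated replicates 1 and 3, sorbitol replicates 2 and 3), where the change lay between -2.32 and -2.07. In the combination the gene was at 1.46, 4.60 and 1.84 RPKM, a fitted change of -4.10 ± 0.82 (adjusted p = 0.0029). Under NaCl the libraries spread over 30.5, 61.6 and 281 RPKM and the fitted change of 1.55 ± 0.71 did not pass (adjusted p = 0.0929). It was 1.95 (adjusted p = 0.00537) without NaCl replicate 1 and -0.000946 without NaCl replicate 3.

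The third AN9168 orthologue, ASPWEDRAFT_174802, kept the pattern of CBS141173. It was at 0.231 to 0.498 RPKM untreated and 0.189 to 0.625 RPKM in the combination, and rose to 3.33 to 4.14 RPKM with sorbitol alone and to 5.80 to 11.7 RPKM with NaCl alone. The fitted log2 changes in edgeR's quasi-likelihood test were 3.44 ± 0.41 (SE; adjusted p = 0.000188), 4.76 ± 0.42 (adjusted p = 8.48e-06) and 0.41 ± 0.46 (adjusted p = 0.512). In the untreated and combined libraries it rested on 4 to 14 reads each.

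Of the glycerol dehydrogenase orthologues, ASPWEDRAFT_108056 rose under both stressors, from 4.25 to 4.76 RPKM untreated to 9.23 to 12.1 RPKM under sorbitol (log2 change 1.27 ± 0.22 (SE), adjusted p = 0.00148 in edgeR's quasi-likelihood test) and 14.6 to 20.0 RPKM under NaCl (1.94 ± 0.23, adjusted p = 5.13e-05). In the combination it was at 5.44 to 6.98 RPKM, with a change of 0.47 ± 0.23 that did not pass (adjusted p = 0.118). ASPWEDRAFT_104176 rose under NaCl only by the test, with 19.3, 6.67 and 10.9 RPKM against 2.56, 3.51 and 2.98 RPKM untreated (2.03 ± 0.32, adjusted p = 0.000417). Under sorbitol it was at 3.11, 3.84 and 4.70 RPKM, a range that overlapped the untreated libraries (0.39 ± 0.32, adjusted p = 0.361). Among the listed members other than the symporters, the same gene had the second highest sorbitol L in CBS141173, at 3.17 after 3.23 for the *gfdA* orthologue.

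Of the 3 members called up in the combination in ′c *gfdB*, the outermost by fitted change are given. ASPWEDRAFT_64849 was at 39.1, 43.6 and 37.03 RPKM untreated and at 192, 257 and 282 RPKM in the combination, a log2 change of 2.64 ± 0.27 (SE; edgeR's quasi-likelihood test, adjusted p = 8.49e-05). In CBS141173 it was at 42.9, 35.8 and 86.95 RPKM untreated and at 63.2, 37.5 and 56.4 RPKM in the combination. ASPWEDRAFT_46504 went from 54.4, 48.5 and 40.6 RPKM to 106.6, 84.1 and 111 RPKM (1.10 ± 0.23, adjusted p = 0.00327). Of the 25 called down, the fitted changes ran from -4.10 to -1.01.

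The rule applied to ′c *gfdB* itself gave 82 genes (0.648%, against 1.58% in CBS141173). The strains shared 25 genes, which are 12.5% of the 200 and 30.5% of the 82. Among the 200 members, 72.5% had L above 1.5 under NaCl in ′c *gfdB* (7.31% of all genes), 20.5% had it under sorbitol (2.6%), and 57.5% had an absolute L under 0.5 in the combination, a share close to the 61% of all genes. The sorbitol limit alone kept out 63 members that met the other limits.

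The 231 genes that passed both single-stress limits in CBS141173 but were not members had a median L of 0.91 in the combination there, and 197 of them were at 0.5 or above. In ′c *gfdB* 230 of them were tested. NaCl called 207 up (90.0%) and sorbitol 152 (66.1%), close to the members' 93.4% and above their 53.8%. In the combination 55 were called up (23.9%) and 17 down (7.39%), with a median fitted log2 change of 0.42, against 1.52%, 12.7% and -0.37 for the members. The median change of these genes was 1.51 under sorbitol and 2.34 under NaCl. A lower median in the combination than under each single stressor was thus not particular to the members. The difference between the sets of genes was not tested.

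The *A. nidulans* counterparts of the 7 listed members took no part in the rule either. There are 7 such genes, since the *gfdA* orthologue pairs with both AN0351 (*gfdA*) and AN6792 (*gfdB*), and the dehydrogenases pair with AN1274 (*gcy1*), AN7193 (*akr1*) and AN11030. The study had gathered its osmotic stress list from genes reported as raised by osmotic stress in *A. nidulans*. The *gfdA* and *atfA* orthologues are on that list, which favours calls of their counterparts under the single stressors. AN11030 was at 0.170 RPKM or less in every library of THS30 and did not pass the filter on low counts. In THS30, 3 of the 6 tested genes were called up under sorbitol (15.3% of all 9498 genes tested), 4 under NaCl (19%) and 0 in the combination (7.54%), where 1 had a positive change at an unadjusted p under 0.05 in edgeR's quasi-likelihood test.

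The genes called under both single stressors were *gfdB*, *atfA* and AN9168 (*mfsA*). *gfdB* (AN6792) was at 3.72, 3.78 and 3.76 RPKM untreated, 70.3, 48.8 and 46.3 RPKM under sorbitol, 166, 177 and 137 RPKM under NaCl and 5.48, 2.73 and 2.38 RPKM in the combination. In edgeR's quasi-likelihood test its log2 change was 3.99 ± 0.25 (SE; adjusted p = 3.73e-11), 5.76 ± 0.26 (adjusted p = 1.53e-13) and 0.15 ± 0.26 (adjusted p = 0.655). The single-stress libraries lay above the others, and the combination spanned the untreated level.

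AN2911 (*atfA*) was at 67.8, 94.5 and 96.3 RPKM in untreated THS30, 334, 320 and 323 RPKM under sorbitol, 421, 377 and 430 RPKM under NaCl and 87.5, 72.2 and 78.2 RPKM in the combination. Its log2 changes in edgeR's quasi-likelihood test were 2.03 ± 0.14 (SE; adjusted p = 6.74e-11), 2.58 ± 0.15 (adjusted p = 7.32e-13) and 0.09 ± 0.14 (adjusted p = 0.573). In Δ*gfdB* the same transcription factor gene changed by 2.44 ± 0.14, 2.82 ± 0.15 and 0.08 ± 0.14 (adjusted p = 4.29e-12, 2.85e-13 and 0.632).

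AN9168 was at 53.1, 82.6 and 95.8 RPKM in untreated THS30, at 986, 964 and 1075 RPKM under sorbitol, at 1567, 2443 and 2919 RPKM under NaCl and at 170, 82.8 and 79.1 RPKM in the combination. In edgeR's quasi-likelihood test the symporter gene changed by 3.82 ± 0.29 (SE; adjusted p = 2.56e-10), 5.24 ± 0.31 (adjusted p = 1.91e-12) and 0.73 ± 0.27 (adjusted p = 0.0216), the last of which was under the 2-fold limit. In Δ*gfdB* the combination was called up for this gene, at 136, 73.6 and 105 RPKM against 42.3, 36.5 and 32.3 RPKM untreated (1.68 ± 0.27, adjusted p = 2.12e-05). Whether the response differs between the *A. nidulans* strains was not tested here.

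**Figure D5:**
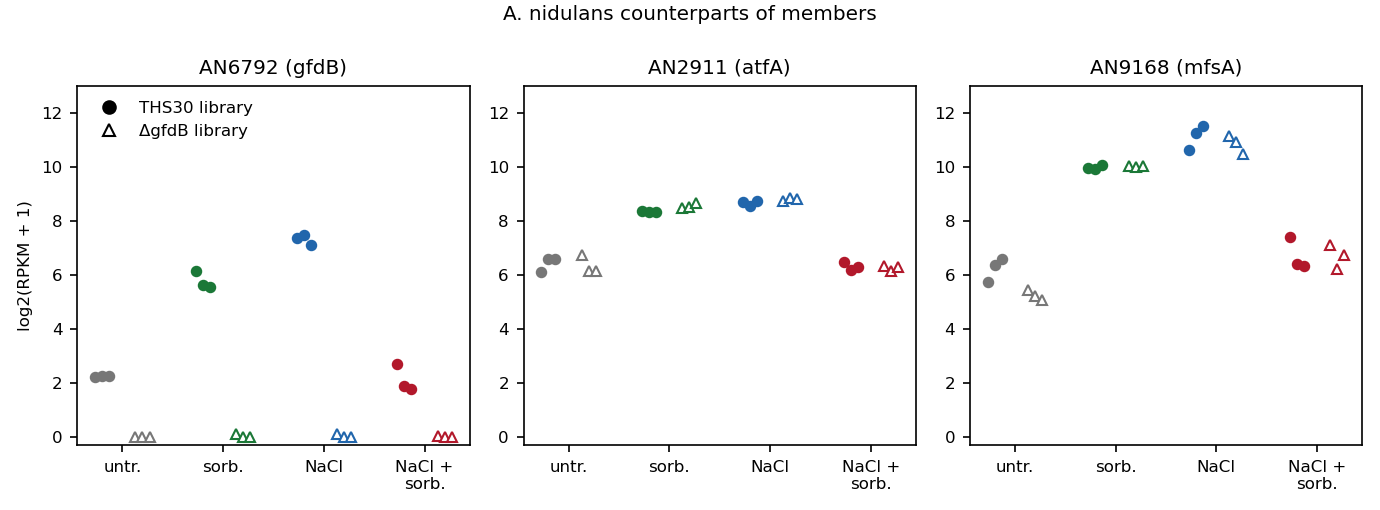
log2(RPKM + 1) of the *A. nidulans* counterparts *gfdB* (AN6792), *atfA* (AN2911) and AN9168 in each library of THS30 (filled circles) and Δ*gfdB* (open triangles). In THS30 all 3 genes are high under each single stressor (AN9168 up to 2919 RPKM) and near the untreated level in the combination, and *gfdB* lies near 0 in the deletion mutant.

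The other counterparts did not follow this pattern. AN0351 (*gfdA*), whose *A. wentii* orthologue was a member, was at 72.9 to 84.1 RPKM in untreated THS30, 76.6 to 79.8 RPKM under sorbitol and 91.5 to 114.2 RPKM under NaCl. Its log2 changes were 0.07, 0.70 and -0.39 under sorbitol, NaCl and the combination, none past 2-fold. AN1274 changed by 0.16, 0.79 and -0.01. AN7193 was called up under NaCl (1.20 ± 0.15 (SE), adjusted p = 1.64e-07 in edgeR's quasi-likelihood test), while its changes under sorbitol and in the combination were -0.92 and -0.75. Without scaling beyond library totals its NaCl change was 0.86, under the 2-fold limit, and its sorbitol change was -1.03, past it. In Δ*gfdB* 2 of the 6 tested genes were called up under sorbitol (15.3% of all genes), 3 under NaCl (18.3%) and 1 in the combination (5.7%). *gfdB* was at 0 to 2 reads in every library of that strain.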

How the data were processed

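The authors aligned RNA-seq reads with HISAT2 2.1.0 (version from the submitters' processing notes) and deposited, per gene and library, read counts and RPKM. The deposited RPKM equal count over gene length and library total, to a relative difference of 5.25e-15. The handling of strand and of multiply aligned reads is not given in the sources used here, so genes of a family may share reads. The deposited gene lengths were used in their deposited unit. The label of 11 Δ*gfdB* samples names another gene in the genotype field, and the titles were followed. The series record gives the doses of sorbitol and NaCl the other way round, and those of the treatment protocol were used.

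Members were found from RPKM with a pseudocount of 1. Tests used edgeR 4.0.16 (TMM, filterByExpr, quasi-likelihood) in R 4.3.3 on counts, 1 fit to the 12 ′c *gfdB* libraries and 1 to the 24 *A. nidulans* libraries, with Benjamini-Hochberg adjustment over all genes tested. The standard error is the fitted change over the root of F. Alternatives used limma 3.58.1 and DESeq2 1.42.0.

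The members, lists and tests were chosen with earlier results of these data known. Named are members on the study's lists, those highest in level or in L, those at the ends of the ′c *gfdB* combination and those at the limits. Of members with no name in the files, few IDs are printed and the rest are given as ranges. *A. nidulans* symbols come from RefSeq (ASM1142v1), except *gfdA* and *gfdB*, which are the study's names. Sequences, promoter motifs, protein features and gene neighbours of *A. wentii* were not analysed here. Counting precision follows from the library totals, 11758085 to 32274107 reads in *A. wentii* and 11438978 to 53348830 in *A. nidulans*. The p-values set a change against the variation between replicate cultures. That variation was estimated per gene over all groups of a fit and moderated across genes.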

Additional observations from a re-analysis of the deposited data

Results flagged for a closer look

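In both of the following genes each library of one strain lay on one side of its untreated libraries and each library of the other strain on the opposite side. ASPWEDRAFT_112163 had an L of 1.86 under sorbitol in CBS141173 and of -2.23 in ′c *gfdB*. ASPWEDRAFT_66122 had an L of 0.31 in the combination in CBS141173 and of -0.55 in ′c *gfdB*. This gene was under 1 RPKM in the untreated and combined CBS141173 libraries, where the pseudocount of 1 weighs on L. The differences between the strains were not tested. Higher than untreated in CBS141173 and lower in ′c *gfdB* were 4 of the 200 members under sorbitol (2%, against 1.82% of all genes), 0 under NaCl (1.04% of all genes) and 11 in the combination (5.5%, against 1.48%). The opposite split was found in 0 members under any treatment (1.22%, 1.04% and 1.05% of all genes). Under each single stressor the limits on L leave no room for this opposite split, and they favour the first one. In the combination 18 members lay below the whole untreated range in CBS141173.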

How the results depend on the processing

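The number of members followed the settings of the rule. From 1.58% of all genes it went to 2.54% with a pseudocount of 0.1, 0.94% with 5, 3.71% with limits of 1 and 0.5, 0.703% with 2 and 0.5, and 0.893% with 1.5 and 0.25. The same settings, applied to ′c *gfdB* after seeing the data, moved 0.648% to 1.53%, 0.253%, 1.95%, 0.190% and 0.427%. Leaving out 1 library gave 1.35% to 1.70% in CBS141173 and 0.553% to 0.719% in ′c *gfdB*.

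Among members called in ′c *gfdB*, those up in the combination were 6 with DESeq2, and those down were 14 with limma and 16 in the fit to 24 libraries. Without 1 library, 86 to 111 were called up under sorbitol, and in the combination 2 to 7 were up (7 without NaCl replicate 1) and 17 to 30 down. The fitted change of ASPWEDRAFT_112163 under NaCl ran from -0.000946 without NaCl replicate 3 to 1.95 without NaCl replicate 1. The main fits did not pair samples by replicate number. Correlations of same-numbered libraries, as deviations from group means, ran from -0.21 to 0.18 in ′c *gfdB* and from -0.37 to 0.31 in CBS141173. They ran from -0.07 to 0.31 in THS30 and from -0.23 to 0.15 in Δ*gfdB*. Such values cannot show whether same-numbered cultures had a common origin. With a replicate block 182 members were called up under NaCl, 3 up and 23 down in the combination, and 120 and 187 below sorbitol and NaCl alone.

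The numbers of *A. nidulans* counterparts called up did not change under a replicate block or, in an alternative chosen after seeing the data, without any 1 library of the strain. Without scaling beyond library totals the median of all genes moved from -0.11 to -0.45 under NaCl in THS30, and changes near 0 turned sign: AN0351 under sorbitol to -0.0365, and AN2911 and AN6792 in the combination to -0.12 and -0.0688. That setting also took the NaCl call of AN7193 in THS30 (0.86) and moved its sorbitol change past 2-fold (-1.03). In the combination of THS30, AN1274 changed by 0.0717 in the fit to 12 libraries and by -0.0552 to 0.0231 without 1 library, AN2911 by -0.0568 to 0.188 and AN6792 by -0.328 to 0.352 without 1 library. With median-of-ratios factors the median of all genes for the combination against NaCl in ′c *gfdB* moved from -0.17 to -0.05. The cause of these changes was not tested. Depth limits members such as ASPWEDRAFT_174802, with 4 to 14 reads in each untreated and combined ′c *gfdB* library.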
